A study of Rattus norvegicus with 12 samples.

Results

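The integrins, cadherins, claudins and laminins on the RAE 230A array were compared between normal and diabetic rat lung. A gene was included if its symbol in the platform annotation began with Itga, Itgb, Cdh or Cldn and a digit, or with Lama, Lamb or Lamc and a digit, on a probe set that names 1 gene. This gave 42 of the 10411 genes named on the array: 6 integrin alpha chains, 4 integrin beta chains, 10 cadherins, 11 claudins and 8 laminin chains. The other 3, Itgb1bp1, Itgb1bp2 and Itgb3bp, encode proteins named for binding integrin beta tails rather than integrins, and they are described apart. For a gene with several probe sets, that with the highest mean log2 signal was used. The array holds further integrins with a letter in place of the digit, such as Itgam and Itgae, which the symbol rule does not cover.

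The animals were 12 male Wistar rats, all 12 weeks old when the lungs were taken. The 7 diabetic animals were injected at 8 weeks of age with streptozotocin, which is toxic to the pancreatic beta cells that make insulin, and the 5 control animals had received the buffer alone by the same route. Both groups were fasted overnight before both lungs were removed, 4 weeks after the injection. Each array held the RNA of 1 animal. The model is chemical, so every diabetic animal was also exposed to the toxin, and the RNA came from every cell type of the whole lung. In such a bulk sample, fewer cells of a type and less RNA per cell cannot be told apart.

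Integrins are receptors built from an alpha and a beta chain that span the plasma membrane and tie the extracellular matrix, or other cells, to the actin cytoskeleton. Laminins are large matrix proteins made of an alpha, a beta and a gamma chain, and they form the sheet of the basement membrane to which many integrins bind. Cadherins join neighbouring cells through calcium-dependent adherens junctions, and claudins seal or selectively open the tight junctions that set the leakiness of an epithelium or endothelium. In the lung these proteins hold the thin barrier between air and blood together.

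Median signals of the arrays lay from 259.6 to 272.0 in the control animals and from 253 to 266 in the diabetic animals (p = 0.120 by a two-sided exact permutation test). Diabetic animal 6 correlated least with its own group, with a mean Pearson r across tested probe sets of 0.948 against 0.963 to 0.971 for the other 6 diabetic animals. The 3' to 5' signal ratio of GAPDH, which depends on RNA integrity, ran from 1.23 to 1.44 in the controls and from 1.10 to 1.30 in the diabetic animals (p = 0.00505 by the same exact test), and the 1.30 belonged to diabetic animal 6. The same ratio of beta-actin ran from 1.63 to 2.75 in the controls and from 1.77 to 2.85 in the diabetic animals (p = 0.920 by the same exact test). Defining lung markers were bright, with mean signals of 25682 and 24347 for the type II cell gene Sftpc in control and diabetic lung. All 3 liver, 4 skin, 4 cardiac muscle and 2 nerve markers on the array were under the filter described next.

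Of the 42 genes, 28 were tested. The other 14 were among the dimmest 40% of probe sets, with a mean under a signal of 170.0 over all 12 animals, and got no test. The tested genes were all 6 integrin alpha and all 4 integrin beta chains, 3 cadherins, 6 claudins, 7 laminin chains and 2 of the integrin-binding proteins. Groups were compared with limma on log2 signal over all 9520 probe sets that the filter kept, and p-values were adjusted over all of them by the method of Benjamini and Hochberg. A log2 change is diabetic minus control throughout.

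None of the 28 genes passed an adjusted p of 0.05 in limma, against 16 of 9520 probe sets, or 0.168%, over the whole array (0.0945% higher and 0.0735% lower in diabetic lung). Before adjustment 6 genes, or 21.4%, had a p under 0.05 in limma, against a background of 16.4% of all probe sets tested. Cldn10 and Cldn12 had higher means in diabetic lung, 2 genes or 7.14% against 7.75% of all probe sets. Itga6, Lama2, Lama4 and Itgb3bp had lower means, 4 genes or 14.3% against 8.68%. The lowest adjusted p among the 28 was 0.162, shared by Itga6 and Cldn10. Permuting the group labels exactly, in all 792 ways, gave 5 genes at an unadjusted p under 0.05, against 16.1% of all probe sets. They were the same ones without Itgb3bp. After adjustment 0 of all 9520 probe sets passed in that test, whose smallest possible p was 0.00253, so its count of 0 is not particular to these genes. The groups overlapped for all 28 genes, where they did not overlap for 2.04% of probe sets (0.924% higher and 1.11% lower in diabetic lung). Log2 changes of the 28 ran from -0.46 for Itgb3bp to 0.51 for Cldn10, and 19 lay below 0, or 67.9%, against 52.8% of all probe sets.

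**Figure D1:**
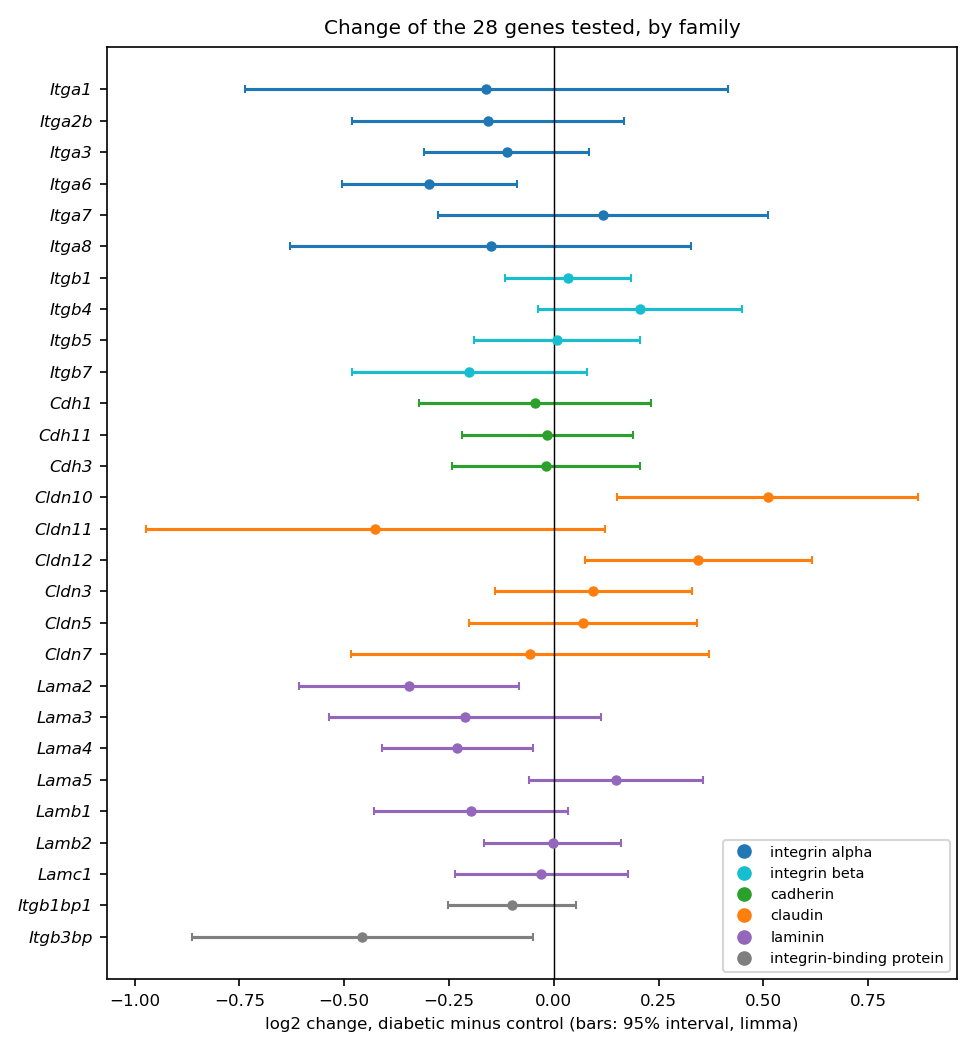
Log2 change in diabetic against control lung (horizontal axis) of the 28 tested genes, coloured by family, with the 95% interval from limma for 5 control and 7 diabetic animals. The intervals of Itga6, Lama2, Lama4 and Itgb3bp lie wholly below 0 and those of Cldn10 and Cldn12 wholly above it, before adjustment for multiple tests.

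The laminin chains had the lowest median of the 5 families, with a log2 change of -0.20 over 7 tested chains, 6 of them below 0, where the median over all probe sets was -0.011. Without diabetic animal 6 it was -0.13. With the GAPDH ratio as a covariate the laminin median was -0.22 and that of the integrin alpha chains was lower, at -0.40. Lama2 and Lama4 encode alpha chains of the laminins that surround muscle cells and lie beneath endothelium, respectively, and both had lower means in diabetic lung. Lama5, the alpha chain of the laminin that is widespread beneath adult epithelium and endothelium, was the single chain above 0.

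The signal of Lama2 was 603, 478, 508, 531 and 516 in the 5 control animals, and from 313 to 526.5 with a median of 385 in the 7 diabetic animals. Controls lay at 478 or more, and 5 of the 7 diabetic animals lay below all of them, while diabetic animals 5 and 7, at 525 and 526.5, were within the control range. The log2 change of -0.34 (SE 0.12, adjusted p = 0.189 in limma) corresponds to means of 527 ± 46.4 (SD, n = 5) for control against 420.4 ± 80.3 (SD, n = 7) for diabetic lung.

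The signal of Lama4 was 869.8, 710.0, 730.4, 750.3 and 805 in the 5 control animals, and from 576 to 745 with a median of 649 in the 7 diabetic animals. The lowest control, 710.0, lay above 5 of the diabetic animals, and diabetic animals 3 and 7 overlapped the controls. Means were 773 ± 64.6 (SD, n = 5) for control against 660.0 ± 62.6 (SD, n = 7) for diabetic lung, a log2 change of -0.23 (SE 0.084, adjusted p = 0.199 in limma). Lama5 had signals of 1047, 917, 956, 980.1 and 1015 in the 5 control animals, and from 956 to 1435 with a median of 1056 in the 7 diabetic animals. Its highest value came from diabetic animal 6, and 3 of the diabetic animals, 1, 5 and 7, lay inside the control range. The log2 change of 0.15 (SE 0.098, adjusted p = 0.468 in limma) did not pass at either threshold. A second probe set of Lama5, dim at 38.3 in control and 33.5 in diabetic lung and under the filter, had a log2 change of -0.27, in the other direction.

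Since Lama4 and Lama5 lay on opposite sides of 0, their signals were also set against each other within each array, a comparison that does not depend on the scaling between arrays and was chosen after the values were seen. Probe sets bind with different strength, so the ratio is not a ratio of amounts, and only its difference between the groups is read. The log2 ratio of Lama4 to Lama5 was -0.39 to -0.27 in the control and -1.16 to -0.40 in the diabetic animals, with means of -0.35 ± 0.051 (SD, n = 5) and -0.73 ± 0.27 (SD, n = 7). The groups did not overlap, although diabetic animal 7, at -0.397, lay close to the lowest control, at -0.389. Of the 21 pairs among the 7 laminin chains, this was the only 1 without overlap, or 4.76%, against 1.95% of all 45310440 pairs of tested probe sets. Over the 378 pairs among the 28 tested genes the share was 1.32%, below that of all pairs. The log2 ratio of Lama2 to Lama5 ran from -0.98 to -0.80 in the controls and from -1.92 to -0.86 in diabetic animals, so that animals 5 and 7 overlapped the controls. No test was made of either ratio.

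**Figure D2:**
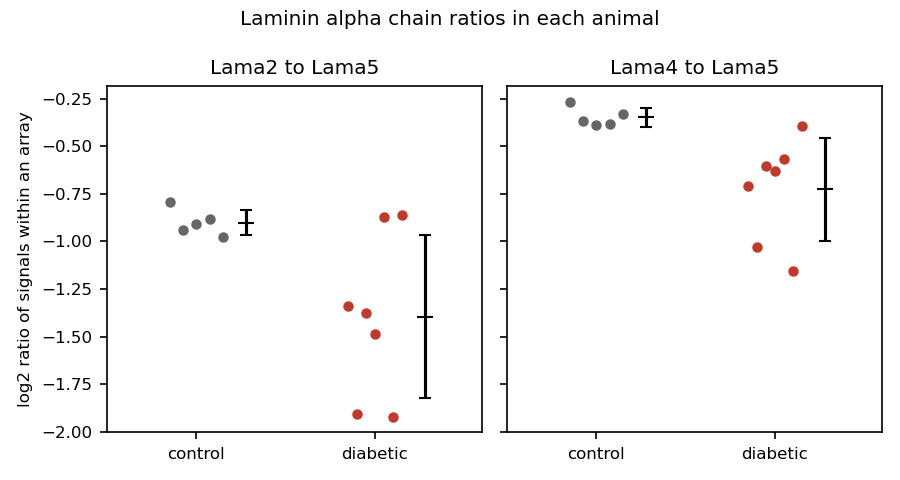
Log2 ratio of the signals of Lama2 to Lama5 (left) and Lama4 to Lama5 (right) within the array of each animal, 5 control in grey and 7 diabetic in red. Black marks give the mean and SD of a group. For Lama4 to Lama5 the diabetic animals, from -1.16 to -0.40, lie below all controls, from -0.39 to -0.27, and for Lama2 to Lama5 diabetic animals 5 and 7 lie among the controls.

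The sequences before the annotated starts of these 3 alpha chain genes are shown because the chains are alternatives for the same position in the laminin molecule and their values lay on both sides of 0. They are the 150 bases upstream of the gene start in RefSeq (build GRCr8), 5′ to 3′ on the strand of the gene, with matches to 4 motifs, on either strand, in capitals. The motifs were the GC box, searched as GGGCGG, and the E-box, the binding site of clock and related factors, searched as CACGTG. The TATA box, which places the start of transcription, was searched as TATAAA, and the CCAAT box by the letters of its name. The windows lie at chr1:19491996-19492145, plus strand for Lama2, chr20:43946748-43946897, plus strand for Lama4 and chr3:187695975-187696124, minus strand for Lama5.
Lama2: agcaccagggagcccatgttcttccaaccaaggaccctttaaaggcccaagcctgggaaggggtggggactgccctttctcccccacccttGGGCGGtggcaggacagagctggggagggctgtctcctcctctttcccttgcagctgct
Lama4: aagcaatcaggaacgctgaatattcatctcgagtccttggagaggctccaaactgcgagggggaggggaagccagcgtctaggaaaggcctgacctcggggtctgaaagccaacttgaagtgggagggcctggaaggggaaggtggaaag
Lama5: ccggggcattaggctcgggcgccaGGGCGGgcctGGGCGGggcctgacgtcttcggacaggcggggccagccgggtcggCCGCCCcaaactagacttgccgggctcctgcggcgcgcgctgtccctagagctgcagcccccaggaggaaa
The window of Lama2 has 1 GC box, starting 59 bases before the gene start, that of Lama4 has none of the 4 motifs, and that of Lama5 has 3 GC boxes, 126, 116 and 71 bases before it. A GC box was present in 26.0% of all 33469 windows of this length in the table. The GC content was 62.7% for Lama2, 56.7% for Lama4 and 74.7% for Lama5, where the median of all windows was 52.7%.

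Among the remaining chains, Lama3, the alpha chain of the epithelial laminin that anchors cells through hemidesmosomes, had means of 412 ± 83.5 (SD, n = 5) for control against 356 ± 71.2 (SD, n = 7) for diabetic lung and a log2 change of -0.21 (95% interval -0.54 to 0.11). Lamb1, the beta chain found in most laminins, had 701 ± 79.0 in control and 613 ± 84.3 in diabetic lung (log2 change -0.20, 95% interval -0.43 to 0.035), and its lowest value, 456, was that of diabetic animal 6. Lamb2, the beta chain of laminins in vessel walls and at synapses, had signals of 1462, 1685, 1535, 1725 and 1411 in the 5 control animals, and from 1439 to 1809.8 with a median of 1540.1 in the 7 diabetic animals. Its log2 change was -0.0025 (95% interval -0.17 to 0.16), and the 2 groups covered nearly the same range. Lamc1, the gamma chain shared by most laminins, had signals of 1580.0, 1492, 1565, 1687 and 1235 in the 5 control animals, and from 1214 to 1762 with a median of 1478 in the 7 diabetic animals, with a log2 change of -0.030 (95% interval -0.24 to 0.18). A second probe set of Lamc1 gave 0.012 (SE 0.11), so the direction of this chain differed between its probe sets. Lama1, the alpha chain of embryonic basement membranes, was under the filter with 124 ± 27.4 in control and 105 ± 19.7 in diabetic lung.

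Markers of fibroblasts, cells that contribute laminins to the lung interstitium, had log2 changes on both sides of 0. Their summed signal over 8 genes ranged from 26746 to 27712 in the control animals and from 12233 to 23359.6 in the diabetic animals. Col3a1 and Mfap4, with control means of 8739 and 8714, were the brightest of the 8 and weigh most in this sum. Of the 8, 5 had lower means and 1, Pdgfra, had a higher mean at an unadjusted p under 0.05 in limma, against 8.68% and 7.75% of all probe sets, and 0 passed an adjusted p of 0.05. The lower ones were the collagen genes Col1a1, Col1a2 and Col3a1 with Lum and Mfap4, at log2 changes of -1.06 to -0.65, while Dcn and Tcf21 had 0.19 and 0.15. The summed signal of 9 endothelial markers ranged from 20379 to 22894 in the control animals and from 17821 to 21835 in the diabetic animals. Of the 8 endothelial markers tested, 7 had log2 changes below 0, against 52.8% of all probe sets. At an unadjusted p under 0.05 in limma 2 had lower means, against 8.68% of all probe sets. They were the sialomucin gene Emcn (-0.50) and the secreted factor gene Egfl7 (-0.32). Pecam1, Kdr and Tie1 had -0.0053, -0.081 and -0.16. The part of these cell types in the laminin values was not tested.

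The claudins held both genes with higher means at an unadjusted p under 0.05. Cldn10 forms ion-selective pores in tight junctions, and Cldn12 is an atypical claudin that lacks the tail motif by which others bind scaffold proteins. The median log2 change over the 6 tested claudins was 0.082, with 4 above and 2 below 0. It was 0.021 without diabetic animal 6, 0.029 without control animal 3, 0.13 without diabetic animal 1, and 0.21 over 10 claudins when only the lowest 20% of probe sets were removed.

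The signal of Cldn10 was 227, 264, 193, 275 and 289.9 in the 5 control animals, and from 253 to 515 with a median of 365 in the 7 diabetic animals. Diabetic animals 1, 2, 3, 4 and 6 lay above every control, and animals 5 and 7 lay within the control range. Means were 249.8 ± 39.3 (SD, n = 5) for control against 362 ± 93.6 (SD, n = 7) for diabetic lung, 1.45 times as high in diabetic lung, with a log2 change of 0.51 (SE 0.17, adjusted p = 0.162 in limma).

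The signal of Cldn12 was 244, 328, 310.1, 318 and 296 in the 5 control animals, and from 289 to 490.2 with a median of 356 in the 7 diabetic animals. Only diabetic animal 5, at 289, lay inside the control range, and the other 6 diabetic animals lay above the highest control at 328. Means were 299 ± 32.9 (SD, n = 5) for control against 383 ± 69.5 (SD, n = 7) for diabetic lung, with a log2 change of 0.34 (SE 0.13, adjusted p = 0.20 in limma). Without control animal 1, the lowest of all 12, Cldn12 no longer had an unadjusted p under 0.05, nor did Lama4, and Cldn10 was the single gene with a higher mean that did.

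The 150 bases before the annotated starts of Cldn10 and Cldn12 are given for comparison with those of the laminins, from the same RefSeq table and with the same marking. They lie at chr15:102269708-102269857, plus strand for Cldn10 and chr4:29482160-29482309, plus strand for Cldn12.
Cldn10: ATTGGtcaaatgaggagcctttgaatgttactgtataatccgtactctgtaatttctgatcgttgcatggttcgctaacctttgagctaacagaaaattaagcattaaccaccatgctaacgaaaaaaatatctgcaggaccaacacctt
Cldn12: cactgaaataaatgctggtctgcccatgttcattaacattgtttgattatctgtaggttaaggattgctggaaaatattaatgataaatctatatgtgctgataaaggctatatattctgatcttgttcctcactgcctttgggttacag
Both windows are poor in G and C, at 38.0% and 34.7%, and Cldn12 had the lowest GC content of the 29 genes that could be matched to the table. Cldn10 has 1 CCAAT match, on the opposite strand at the start of its window, and Cldn12 has none of the 4 motifs. A CCAAT match was present in 23.5% of all windows.

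Cldn5, the main claudin of endothelium and a determinant of vascular leak, had a signal of 5862, 5159.5, 4456, 4491 and 5130.5 in the 5 control animals, and from 3931 to 7458 with a median of 5313 in the 7 diabetic animals. The highest value, 7458, and the lowest, 3931, were both from diabetic animals, 6 and 1, and the other 5 lay at 4381 to 5670, against 4456 to 5862 in the controls. Its log2 change was 0.070 (95% interval -0.20 to 0.34). Cldn3, a sealing claudin of alveolar and airway epithelium, had a signal of 600.5, 806, 571, 745 and 736 in the 5 control animals, and from 631 to 882 with a median of 692 in the 7 diabetic animals, and a log2 change of 0.094 (95% interval -0.14 to 0.33). Cldn7, an epithelial claudin of basolateral membranes, had means of 209 ± 34.8 (SD, n = 5) for control against 207 ± 56.7 (SD, n = 7) for diabetic lung and a log2 change of -0.056 (95% interval -0.48 to 0.37). Cldn11, known from the myelin sheath and the testis barrier, had the largest negative log2 change of the claudins, -0.43 (95% interval -0.97 to 0.12), with means of 395 ± 111 (SD, n = 5) for control against 302 ± 112 (SD, n = 7) for diabetic lung and its lowest signal, 141, in diabetic animal 6.

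The other 5 claudins were under the filter and were not tested. Cldn2, a pore-forming claudin of leaky epithelia, had 51.2 ± 9.91 in control and 82.8 ± 23.9 in diabetic lung, and Cldn4, a sealing claudin of alveolar epithelium, had 69.8 ± 34.0 in control and 105 ± 29.7 in diabetic lung. With all probe sets kept, Cldn2 had a log2 change of 0.65 (SE 0.25, unadjusted p = 0.0177, adjusted p = 0.286 in limma), and Cldn4 had 0.73 (SE 0.35, unadjusted p = 0.0520, adjusted p = 0.400). Signals of 22.9 to 149 for Cldn4 and 42.8 to 106 for Cldn2 are dim for this array. Cldn1 had 78.6 ± 31.4 in control and 66.8 ± 15.4 in diabetic lung, Cldn19 had 88.4 ± 41.8 in control and 119 ± 74.0 in diabetic lung, and Cldn16 stayed between 3.80 and 9.40 in all 12 animals.

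Summed signals of epithelial markers overlapped between the groups. They were 67763 to 83062 in controls and 68207 to 87516 in diabetic animals for 6 type II cell genes, and 36675 to 40818 and 33777 to 40838 for 6 type I cell genes. In both lists the highest sum was that of diabetic animal 6. Of the type II genes Slc34a2, a phosphate transporter, had a higher mean at an unadjusted p under 0.05 in limma (log2 change 0.17). Of the type I genes Aqp5, a water channel, and Ager had lower means at an unadjusted p under 0.05 in limma (log2 changes of -0.52 and -0.24), and Hopx had a higher one (0.23). Over all probe sets tested, 8.68% had lower and 7.75% had higher means at this threshold. Their part in the claudin values was not tested.

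**Figure D3:**
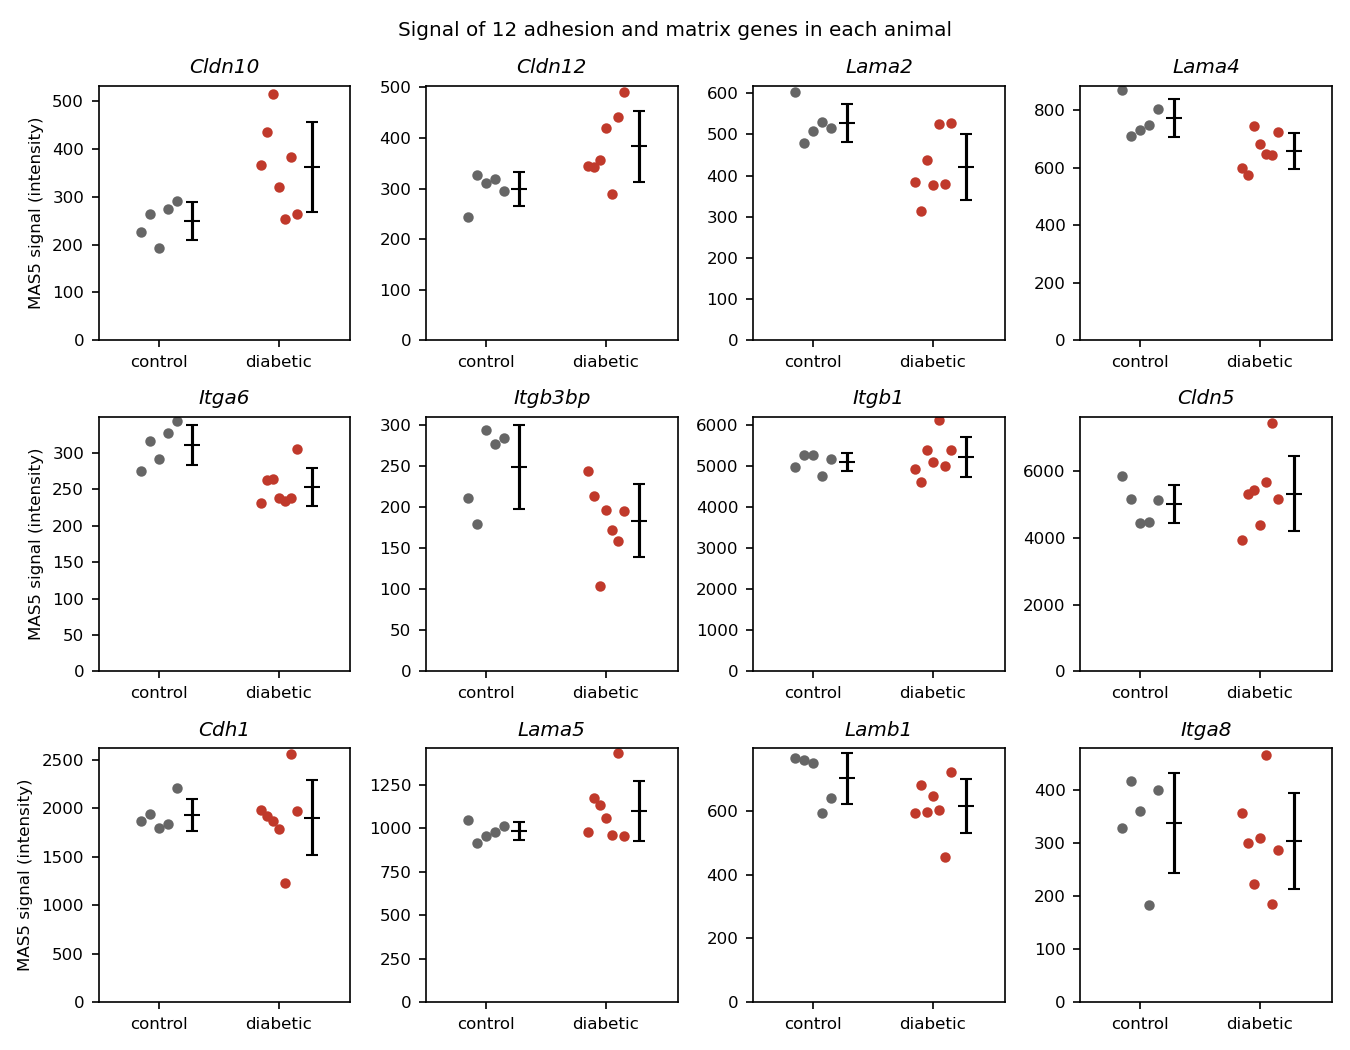
MAS5 signal (vertical axes, linear scale from 0) of 12 genes for every animal, with the 5 control animals in grey, the 7 diabetic ones in red and the mean and SD of each group in black. The first 6 panels show the genes at an unadjusted p under 0.05 and the others 6 genes described in the text, and the groups overlap in every panel.

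Among the integrins, Itga6 alone had an unadjusted p under 0.05 in limma, 1 of 10 chains, against 16.4% of all probe sets. It encodes the alpha 6 chain, a laminin receptor that pairs with beta 4 in the hemidesmosomes of epithelium and with beta 1 elsewhere. The signal of Itga6 was 275, 315, 292, 327 and 343 in the 5 control animals, and from 230.3 to 304 with a median of 238 in the 7 diabetic animals. All diabetic animals but animal 7, at 304, lay below the lowest control, 275. Means were 310.4 ± 27.4 (SD, n = 5) for control against 253 ± 26.3 (SD, n = 7) for diabetic lung, with a log2 change of -0.30 (SE 0.098, adjusted p = 0.162 in limma). A dimmer probe set of Itga6, which the filter left out, had a log2 change of -0.16, with mean signals of 152 in control and 137 in diabetic lung. With the mean of both probe sets in place of the brighter, Itga6 no longer had an unadjusted p under 0.05.

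Itgb4, the partner of alpha 6 in hemidesmosomes, had 268 ± 28.3 (SD, n = 5) for control against 309.9 ± 43.8 (SD, n = 7) for diabetic lung, a log2 change of 0.21 (95% interval -0.037 to 0.45) with the opposite sign to that of Itga6. Its signal was 285, 221, 266, 274 and 293 in the 5 control animals, and from 255 to 379.7 with a median of 314 in the 7 diabetic animals. Of the diabetic animals 4 lay above the highest control, and animals 3, 4 and 5 lay among the controls. Itgb1, the beta chain of most matrix-binding integrins, had a signal of 4962, 5263, 5268, 4757 and 5152 in the 5 control animals, and from 4599.9 to 6109 with a median of 5101 in the 7 diabetic animals. The control animals stayed within 4757 to 5268, a coefficient of variation of 4.31%, and that of the diabetic animals was 9.19%. The log2 change of Itgb1 was 0.034 (95% interval -0.12 to 0.18), and a second tested probe set gave -0.097 (SE 0.069), on the other side of 0.

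Itga3, a laminin receptor of alveolar and airway epithelium, had a signal of 1468, 1256, 1235, 1252 and 1365 in the 5 control animals, and from 1054 to 1485 with a median of 1209.6 in the 7 diabetic animals. Diabetic animals 1, 2, 3, 4 and 7 lay below the controls, animal 3 by a narrow margin, and animal 6 lay above them. Its log2 change was -0.11 (95% interval -0.31 to 0.083). Itga1, a collagen receptor, varied most between animals of 1 group among the 28 tested genes, with a signal of 1993, 879, 1076, 922 and 1207 in the 5 control animals, and from 601 to 1801 with a median of 995 in the 7 diabetic animals. Control animal 1 was at 1993 and the other 4 controls at 879 to 1207, and the log2 change of -0.16 (95% interval -0.74 to 0.41) turned to 0.034 without that animal. Itgb5, which pairs with the alpha v chain on vitronectin, had a signal of 837, 801, 746, 629.6 and 724 in the 5 control animals, and from 671 to 869 with a median of 730.5 in the 7 diabetic animals, and a log2 change of 0.0076 (95% interval -0.19 to 0.21).

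The other integrin chains had wide intervals that include 0. Itga8, a chain of interstitial fibroblasts and smooth muscle, had means of 338 ± 93.3 (SD, n = 5) for control against 304 ± 90.8 (SD, n = 7) for diabetic lung and a log2 change of -0.15 (95% interval -0.63 to 0.33), and its 2 lowest signals, 183 and 186, came from control animal 4 and diabetic animal 6. Itga7, a laminin receptor of muscle, had 259.9 ± 55.4 in control and 285 ± 78.0 in diabetic lung (log2 change 0.12, 95% interval -0.28 to 0.51). A much dimmer probe set of Itga7, at 15.4 and 5.64, and a further one, at 91.0 and 94.8, were left out by the filter. Their log2 changes were -0.98 and -0.040, both on the other side of 0 from that of the probe set used.

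For Itga2b, the alpha chain of the platelet fibrinogen receptor, the means were 239.8 ± 33.9 in control and 218 ± 48.2 in diabetic lung (log2 change -0.16, 95% interval -0.48 to 0.17). The platelet chemokine gene Pf4 had 2442 ± 207 in control and 1778 ± 469 in diabetic lung (unadjusted p = 0.00429, adjusted p = 0.126 in limma), while Ppbp, also a platelet marker, was under the filter. For Itgb7, the beta chain of integrins that home lymphocytes to mucosa, the means were 315 ± 53.4 in control and 274 ± 39.2 in diabetic lung (log2 change -0.20, 95% interval -0.48 to 0.080), with the lowest signal, 207, in diabetic animal 6. The summed signal of 5 lymphocyte markers ranged from 1162 to 1347 in the control animals and from 562 to 1274 in the diabetic animals, and the 562 was also that of diabetic animal 6. The part of platelets and lymphocytes in these values was not tested.

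Itgb3bp, a centromere and nuclear receptor cofactor named for binding the beta 3 tail, had a signal of 211, 179, 293, 277 and 284 in the 5 control animals, and from 104 to 243 with a median of 195 in the 7 diabetic animals. Diabetic animals 3, 5 and 6 lay below the controls and the other 4 lay within the control range, with animal 3 lowest. Means were 249 ± 50.8 (SD, n = 5) for control against 183 ± 44.3 (SD, n = 7) for diabetic lung, with a log2 change of -0.46 (SE 0.19, adjusted p = 0.256 in limma), and a dimmer probe set under the filter had a log2 change of -0.14. Itgb1bp1, a cytoplasmic protein that restrains beta 1 integrin activation, had a signal of 676, 690.5, 629, 753 and 644 in the 5 control animals, and from 583 to 699 with a median of 630.0 in the 7 diabetic animals. Its log2 change was -0.099 (95% interval -0.25 to 0.054), and diabetic animals 2, 5 and 7 lay below the control range. Itgb1bp2, the muscle protein melusin, was under the filter with 76.1 ± 44.6 in control and 74.3 ± 29.8 in diabetic lung.

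The 3 cadherins tested had log2 changes close to 0, from -0.045 to -0.016. Cdh1, the E-cadherin of epithelial adherens junctions, had a signal of 1873, 1944, 1794, 1838 and 2214 in the 5 control animals, and from 1236 to 2556 with a median of 1922 in the 7 diabetic animals. The lowest and the highest value were both diabetic, from animals 5 and 6, and the other 5 diabetic animals lay at 1791 to 1986. The log2 change of Cdh1 was -0.045 (95% interval -0.32 to 0.23), and the coefficient of variation was 8.63% in control and 20.3% in diabetic lung. Cdh11, a cadherin of fibroblasts and other mesenchymal cells, had a signal of 557, 562, 598, 648 and 498 in the 5 control animals, and from 463 to 662 with a median of 573 in the 7 diabetic animals, with a log2 change of -0.016 (95% interval -0.22 to 0.19). Its groups overlapped, with diabetic animals at both ends. Cdh3, the P-cadherin of basal epithelial cells, had 316 ± 32.1 (SD, n = 5) for control against 313 ± 40.5 (SD, n = 7) for diabetic lung and a log2 change of -0.019 (95% interval -0.24 to 0.21).

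The other 7 cadherins were under the filter. Cdh13, a cadherin without a transmembrane part that is found on vessels, had 172 ± 27.5 in control and 151 ± 29.5 in diabetic lung. Its 2 dimmer probe sets had log2 changes of 0.36 and 0.96, in the opposite direction. Cdh2, the N-cadherin of mesenchymal and neural cells, had 88.4 ± 8.33 in control and 70.5 ± 23.3 in diabetic lung, with its lowest signal, 28.1, in diabetic animal 6, and Cdh6 had 83.9 ± 29.4 in control and 52.5 ± 21.3 in diabetic lung. For Cdh2 a dimmer probe set had a log2 change of 0.21, and that of Cdh22 had -0.088, both against the direction of the brighter probe set. Means of Cdh17, Cdh22, Cdh23 and Cdh16 were 142, 90.6, 55.3 and 28.5 in control and 137, 118, 55.6 and 23.7 in diabetic lung. With all probe sets kept, 0 of the 7 had an unadjusted p under 0.05 in limma, against 12.7% of all probe sets in that fit.

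**Figure D4:**
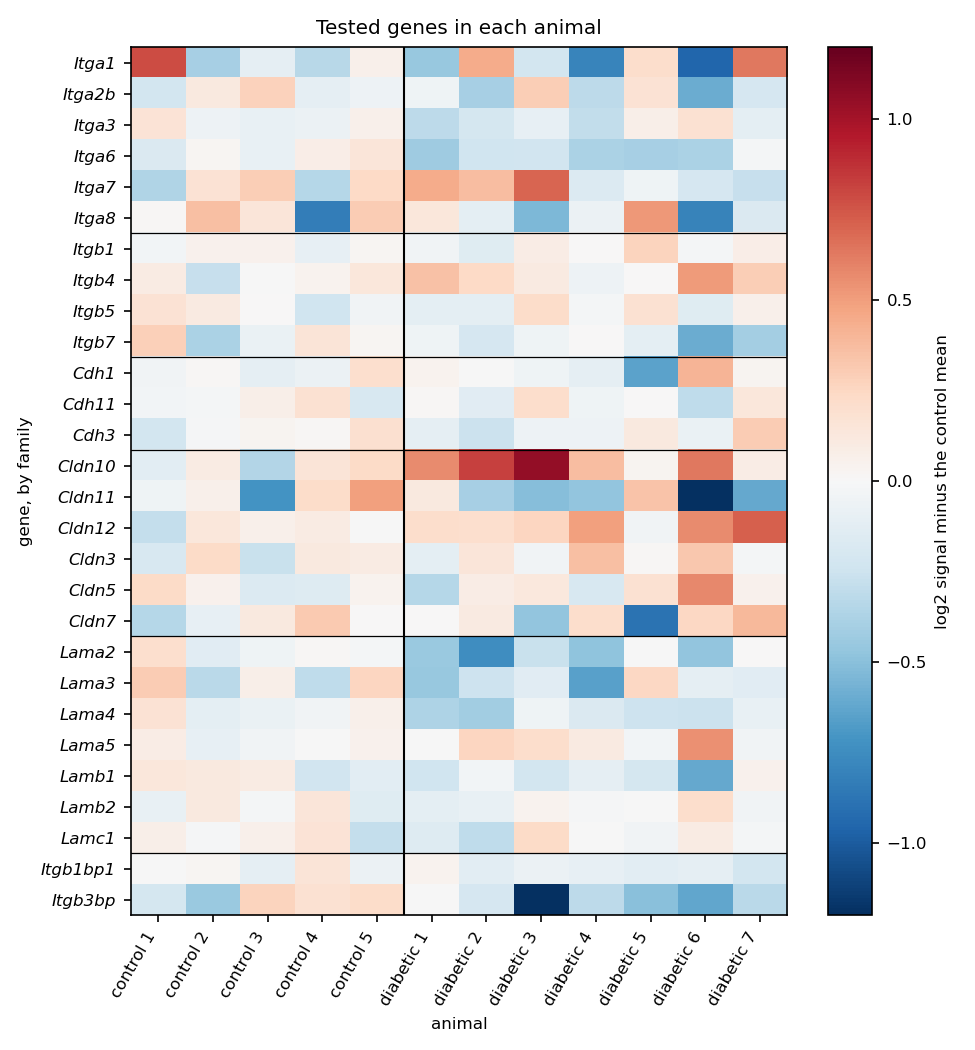
Log2 signal minus the control mean (colour) of the 28 tested genes (rows, grouped by family) in 5 control and 7 diabetic animals (columns). Lama2, Lama4 and Itga6 are mostly blue and Cldn10 and Cldn12 mostly red in the diabetic animals, and diabetic animal 6 holds several of the strongest colours.

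Diabetic animal 6 was the lowest or highest of the 7 diabetic animals for 14 of the 28 tested genes, or 50.0%, against 48.6% of all probe sets. It was the lowest for 8 genes, among them Lamb1, Itga1 and Cldn11, and the highest for 6, among them Cldn5, Cdh1 and Lama5. Without it, the genes at an unadjusted p under 0.05 were still the same 6, against 16.5% of all probe sets in that fit. An adjusted p under 0.05 in limma was then found for 0 of the 28 genes and for 30 of all 9520 probe sets. Per animal, the median laminin log2 signal relative to the control mean lay between -0.099 and 0.13 for control and between -0.25 and -0.029 for diabetic lung. That of the claudins ran from -0.21 to 0.14 and from 0.025 to 0.45. Those of the integrin alpha chains ran from -0.22 to 0.10 and from -0.48 to 0.12, those of the integrin beta chains from -0.11 to 0.13 and from -0.13 to 0.097, and those of the cadherins from -0.041 to 0.19 and from -0.13 to 0.14. The 2 groups overlapped in each of the 5 families.

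The proteins that work with these families were described by lists of the genes measured. Of 10 tested junction scaffolds and catenins, 1 had a higher and 1 a lower mean at an unadjusted p under 0.05, against 7.75% and 8.68% of all probe sets, and 0 passed an adjusted p of 0.05 in limma. Ctnnb1, the beta-catenin that links cadherins to actin, had 5980.5 ± 443 in control and 7008 ± 617 in diabetic lung (log2 change 0.23, adjusted p = 0.159 in limma). Jup, its relative plakoglobin, which is also a desmosomal gene, had 2452 ± 242 in control and 2099 ± 189.7 in diabetic lung (-0.22). The tight junction scaffold Tjp1 had a log2 change of -0.13 and the polarity scaffold Patj 0.15.

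Of 11 other junction membrane proteins tested, 2 had higher means at an unadjusted p under 0.05 and 0 had lower ones, against 7.75% and 8.68% of all probe sets, and 0 passed an adjusted p of 0.05 in limma. Ocln, the tight junction protein occludin, had 999 ± 94.0 in control and 1174 ± 97.3 in diabetic lung (log2 change 0.23, adjusted p = 0.183 in limma), and Cldnd1, a claudin-like protein, had a log2 change of 0.23. The gap junction gene Gja1 had -0.19 and the adherens junction gene Nectin1 0.16. Of 7 desmosomal genes tested, Jup alone had an unadjusted p under 0.05, where 16.4% of all probe sets did. Krt18, Dsp and Perp had log2 changes of 0.13, -0.16 and -0.035.

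The list of basement membrane genes and matrix ligands of integrins, 21 tested, also included the surface receptors Bcam, Dag1, Sdc1 and Sdc4. Of the 21, 7 had lower means and 1 a higher mean at an unadjusted p under 0.05, against 8.68% and 7.75% of all probe sets. After adjustment 0 passed a p of 0.05 in limma. The list's median log2 change was -0.13. Bcam, a surface receptor for laminin alpha 5, had a signal of 2464, 2073, 2249, 2133 and 2210.2 in the 5 control animals, and from 1574 to 2068 with a median of 1806 in the 7 diabetic animals. All 7 diabetic animals lay below all controls, at a log2 change of -0.28 (SE 0.075, adjusted p = 0.0975 in limma). The margin was narrow, with diabetic animal 5 at 2068 and the lowest control at 2073. Sdc4, the syndecan that acts with integrins in focal adhesions, was the higher gene, with a signal of 2829, 3395, 3222, 2788 and 3122 in the 5 control animals, and from 3577 to 4323 with a median of 3816 in the 7 diabetic animals. Here too the groups did not overlap, as for 2.04% of all probe sets (log2 change 0.32, adjusted p = 0.0701 in limma). Fbln1, a fibulin of basement membranes, had a log2 change of -0.86, and Col18a1, the basement membrane collagen that yields endostatin, had -0.56.

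Of 24 tested integrin adaptors, 2 had higher and 3 had lower means at an unadjusted p under 0.05, against 7.75% and 8.68% of all probe sets, and 0 passed an adjusted p of 0.05 in limma. Bcar1, the p130Cas scaffold of focal adhesions, had 391 ± 56.0 in control and 289.6 ± 35.1 in diabetic lung (log2 change -0.43), and Tgfb1i1, the paxillin relative Hic-5, had 1295 ± 182 in control and 1028 ± 165 in diabetic lung (-0.34). Fhl2, a LIM protein that binds integrin tails, had 188 ± 36.0 in control and 257 ± 34.6 in diabetic lung (0.47), and the focal adhesion kinase relative Ptk2b had a log2 change of 0.32. Of 7 tested cell ligands, 1 had an unadjusted p under 0.05, against 16.4% of all probe sets. This was Icam1, which leukocyte integrins bind on endothelium and epithelium, with 4323 ± 419 in control and 3638 ± 406 in diabetic lung (-0.25). Adam17, Icam2 and Vcam1 had -0.25, 0.10 and -0.13. The 3 letter-named integrins on the array, Itgam, Itgad and Itgae, were all under the filter.

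The GAPDH ratio differed between the groups, so the fit was also made with this ratio as a covariate. Itga8 and Lamb1 then passed an adjusted p of 0.05 in limma, with log2 changes of -1.02 (SE 0.23, adjusted p = 0.0324) and -0.56 (SE 0.13, adjusted p = 0.0388). They were 2 of the 28 genes, where 288 of all 9520 probe sets passed. In that fit Lama2, Lama4 and Itga6 had log2 changes of -0.41 (SE 0.20), -0.22 (SE 0.14) and -0.32 (SE 0.16), close to those without the covariate but with larger standard errors, and no longer had an unadjusted p under 0.05. Diabetic animal 6 is the single diabetic animal whose ratio lies in the control range. Without it, and with the same covariate, 0 probe sets passed, 0 of the 28 genes among them, and Itga8 and Lamb1 had adjusted p-values of 0.404 and 0.619 in limma. An unadjusted p under 0.05 was then found for 3 of the 28, Cldn10, Itga8 and Lamb1, and for 761 of all 9520 probe sets, or 7.99%. With the beta-actin ratio as the covariate instead, on all 12 arrays, 0 of the 28 genes passed an adjusted p of 0.05 in limma. The 6 genes at an unadjusted p under 0.05 were those of the main fit, against 17.3% of all probe sets.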

How the data were processed

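Whole lung RNA of 5 control and 7 diabetic rats was hybridized by the authors to Affymetrix RAE 230A arrays, without pooling. The deposited values are 1 MAS5 signal per probe set, an intensity on a linear scale, which the authors had scaled to a trimmed mean of 500.1 (without the lowest and highest 2%). No further normalization was applied. Signals were taken as log2, with the 1 value at or below 0 set to 0.1, and the 57 control probe sets were dropped. Genes were named from the platform annotation, and all 42 symbols are current in RefSeq.

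The test was limma 3.58.1 in R 4.3.3 (lmFit, then eBayes with trend = TRUE), two-sided, without covariates, on the 9520 probe sets that remained once the dimmest 40% by mean log2 signal were removed. The fit was tested on simulated data. BAMarray and the detection calls of the study were not used here. Values by animal are given for genes at an unadjusted p under 0.05, for the 2 brightest genes of each family and for that with the largest change. Of each list of partner genes, up to 4 with the smallest p are named. Lama5, Bcam and Sdc4 were given by animal after their values had been seen. The genes and lists were chosen with earlier results of these data known. Alternatives changed the scaling, the pseudocount (64), the filter, the variance estimate, the weighting of arrays, the use of replicate numbers or RNA integrity ratios, the choice of probe set, the threshold, the test, or left out animals. Promoter windows come from RefSeq (GRCr8), which held 29 of the 42 genes. With 12 arrays, precision is limited by their number.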

Additional observations from a re-analysis of the deposited data

How the results depend on the processing

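The count of 0 genes past an adjusted p of 0.05 held under each alternative tested, an adjusted p under 0.10 included, except with the GAPDH ratio as a covariate, where it was 2. With that covariate 8 genes had an unadjusted p under 0.05, 4 of them with higher means, where 19.3% of all probe sets did. The medians were -0.40 for integrin alpha, -0.096 for integrin beta chains and 0.35 for claudins. Log2 changes that turned sign in it were 0.070 for Itga3, -0.054 for Itgb1, -0.14 for Itgb5, 0.20 for Cdh1, 0.21 for Lamb2 and 0.17 for Lamc1. The same covariate without diabetic animal 6, chosen after seeing the data, left 3 genes at an unadjusted p under 0.05, 1 higher and 2 lower, and a cadherin median of -0.17. There Itgb1 had -0.097, Itgb5 -0.097, Cdh11 0.26, Lamb2 0.17, Lamc1 0.26 and Itgb1bp1 0.14. The count of genes with higher means at an unadjusted p under 0.05, which was 2, became 4 when only the lowest 20% of probe sets were removed and 1 without diabetic animals 6 and 7, where Cdh11 had 0.011 and Cldn5 -0.027. The count with lower means, which was 4, became 2 with the mean of a gene's probe sets, where Itgb1 had -0.032. In these fits, in the order given, 14.2%, 15.2% and 16.4% of all probe sets had an unadjusted p under 0.05, both directions together. Centring each array on its median gave 0.011 for Cdh11 and 0.024 for Lamb2, and array weights gave 0.027 for Itga1, -0.020 for Itgb5 and 0.0040 for Cdh11.

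Replicate numbers are shared by control and diabetic animals 1 to 5, and the labels do not say what a number stands for. Deviations of same-numbered animals from their group means had correlations of -0.12 to 0.038. With the replicate block 4 genes, Cldn10, Itga6, Lama2 and Lama4, had an unadjusted p under 0.05, 1 of them higher, against 13.3% of all probe sets. In that fit Cdh11 had 0.011 and Cldn5 -0.027. No control has the number 6 or 7, so the log2 changes of this fit are by construction those without diabetic animals 6 and 7. With 1 animal left out in turn, 1 to 3 genes were higher and 3 to 5 lower at an unadjusted p under 0.05. In those fits 13.3% to 16.6% of all probe sets had such a p, both directions together. Log2 changes then ranged from -0.29 to 0.034 for Itga1, -0.0054 to 0.063 for Itgb1, -0.053 to 0.050 for Itgb5, -0.12 to 0.055 for Cdh1, -0.064 to 0.032 for Cdh11, -0.015 to 0.14 for Cldn5, -0.039 to 0.034 for Lamb2 and -0.10 to 0.016 for Lamc1. The cause of these differences was not tested. Over the alternatives the adjusted p in limma or in the permutation test ranged from 0.0946 to 0.466 for Cldn10, 0.120 to 0.893 for Cldn12, 0.126 to 0.860 for Itga6, 0.127 to 0.842 for Lama2 and 0.190 to 0.893 for Lama4.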

Other observations

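Among the 42 genes are 3 pairs of chromosomal neighbours. Cldn3 and Cldn4 are adjacent protein-coding genes on chromosome 12 of the RefSeq assembly GRCr8, as are Cdh3 and Cdh1 on chromosome 19 and Cldn16 and Cldn1 on chromosome 11. Cldn3, with a log2 change of 0.094, lay beside Cldn4, which was under the filter and had 0.73. Cdh3 and Cdh1 both lay close to 0, at -0.019 and -0.045. Cldn16 and Cldn1, both under the filter, had -0.048 and -0.18.

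Of the 378 pairs among the 28 tested genes, the log2 ratio within an array did not overlap between the groups for 5, or 1.32%, against 1.95% of all pairs of tested probe sets. They were Itga6 with Itgb4, Cldn10 and Cldn12, and Lama4 with Itgb4 and Lama5. A GC box was present before the start of 14 of the 29 genes with a promoter window, or 48.3%, against 26.0% of all windows. An E-box was present in 0 of the 29, against 3.74% of all windows. A match to the TATA box was present in 1, that of Itgb7, on the opposite strand, against 8.00% with a match on either strand. The median GC content of the 29 windows was 61.3%, against 52.7% over all windows.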
